A study of Mus musculus with 8 samples.

Results

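Newly made RNA of 8 genes of the LIF and STAT3 pathway was followed in mouse embryonic stem cells whose histone H3.3 has a lysine replaced by alanine (K122A). The genes were listed by symbol for their roles: the receptor chains Lifr and Il6st, the kinase Jak1, the transcription factor Stat3, the feedback inhibitor Socs3, and the STAT3 targets Klf4, Klf5 and Tfcp2l1. All 8 were found in each of the 4 deposited tables, which together hold 16896 genes. The line was ES-E14TG2a (E14), of male origin, and every library was made after a 5 min pulse with 500 nM 4-thiouridine (4sU), by TT-seq, which draws out the RNA made during the pulse. The genes H3f3a and H3f3b both encode H3.3, which makes 4 alleles per cell. Wildtype cells gave 3 libraries. Single-targeted lines carried 2 mutant alleles, in H3f3a for one (H3f3a A/A H3f3b WT/WT) and in H3f3b for the other (H3f3a WT/WT H3f3b A/A), with 1 library of each. Dual-targeted lines carried 3 mutant alleles: a pair of H3f3a A/A H3f3b WT/A clones (the clones) and 1 with genotype H3f3a WT/A H3f3b A/A (the third line). As every mutant line was profiled in 1 library, replicate error in the mutant groups mixes variation from line to line with that between libraries. The labels describe a medium with LIF and one with LIF and 2 inhibitors (of GSK3 and of MEK), and do not say which was used for these libraries.

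LIF is a cytokine that keeps mouse embryonic stem cells from differentiating. It joins the LIF receptor (Lifr) to the shared signalling chain gp130 (Il6st), the kinase JAK1 bound to these chains phosphorylates STAT3, and STAT3 enters the nucleus and switches on its targets. Among these are Klf4, Klf5 and Tfcp2l1, transcription factors of the naive state, and Socs3, whose product binds gp130 and JAK and shuts the signal down.

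Values per library were not analysed here, so the depth of each library is unknown. A log2 fold change is given with its standard error (SE) as the authors deposited it, and fold changes are read here as shrunken toward 0, so their sizes in different tables are not strictly comparable. A gene is said to have risen or fallen where the authors' adjusted p was under 0.05. The authors' deposited tables list one for 16493 of 16498 genes (dual-targeted), 15030 of 16255 (single-targeted), 13141 of 16149 (dual- against single-targeted) and 15640 of 16254 (clones). In place of levels per library, the mean normalized count of each group was rebuilt by subtraction from the 4 deposited means. These rebuilt means carry no error and were not tested. Normalized counts are not divided by gene length, so they are compared between groups and not between genes. The comparisons with wildtype share the same 3 wildtype libraries. All 9 embryonic stem cell markers listed were measured, with a summed mean count of 19099 over the dual-targeted and wildtype libraries in the authors' deposited table. Of 8 fibroblast or feeder markers, 2 were measured there, with a summed mean count of 41.0. Of 7 primitive endoderm markers, 5 were measured, with a summed mean count of 69.4. The collagens Col1a1, Col1a2 and Col3a1 were not in the table.

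In dual-targeted lines Socs3, Klf4, Klf5 and Stat3 rose, and Lifr, Il6st, Jak1 and Tfcp2l1 did not pass the test. Thus 4 of 8 members were higher and 0 lower in the dual-targeted comparison in the authors' deposited table, where 20.9% of all tested genes were called, 10.8% higher and 10.1% lower. The members' median log2 fold change was 0.31, beside 0.01 over all genes. With 2 mutant alleles, 2 of 8 members (Socs3 and Klf5) were higher and 0 lower in the authors' deposited table, where 2.96% of all tested genes were called, 1.49% higher and 1.47% lower, and the members' median was 0.43 beside 0.00 over all genes. Between dual- and single-targeted lines, 1 of 8 members (Socs3) was higher and 0 lower in the authors' deposited table, against a background of 7.06% of tested genes called, 4.37% higher and 2.69% lower. The clones alone had 4 of 8 members higher than wildtype and 0 lower in the authors' deposited table, where 19.3% of tested genes were called, 9.05% higher and 10.3% lower.

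**Figure D1:**
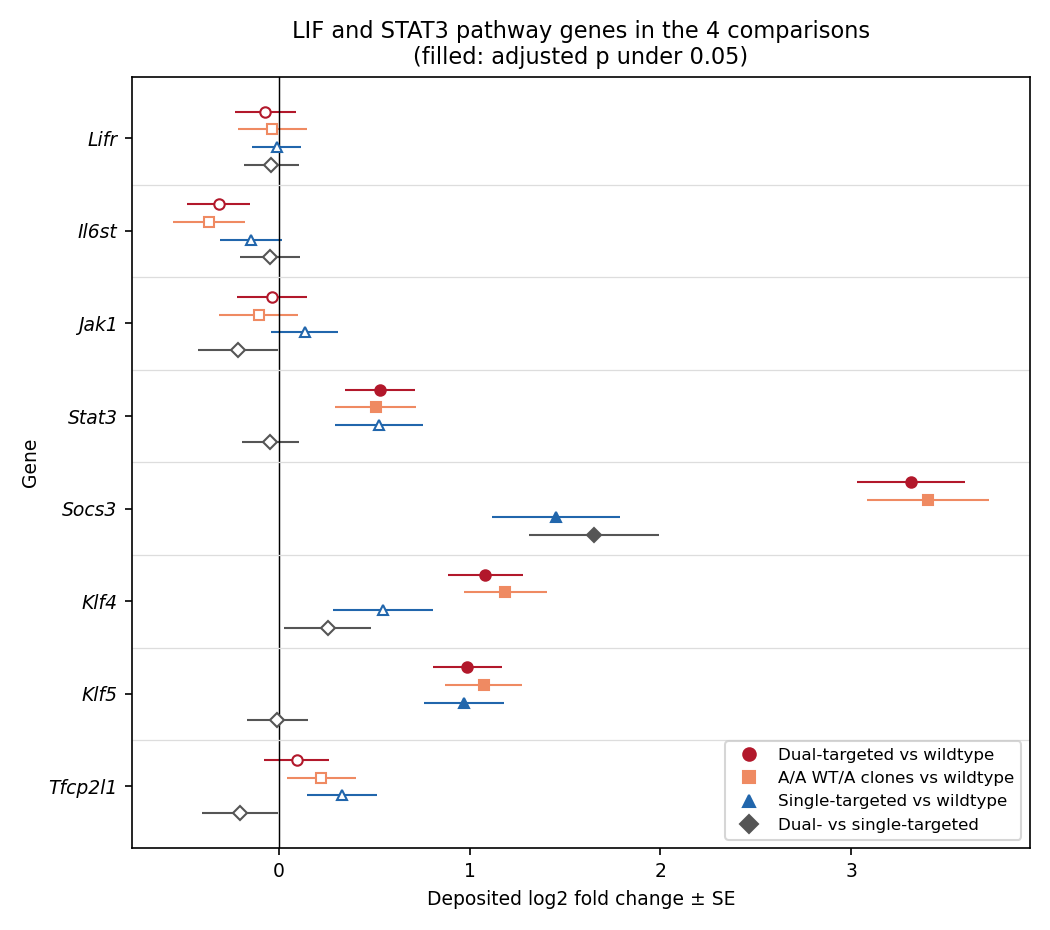
Deposited log2 fold change (x axis, with SE bars) of each of the 8 genes (rows) in the 4 comparisons, filled where the adjusted p was under 0.05. Socs3 stands far to the right at 3.32 in dual-targeted lines and 1.45 in single-targeted lines, whereas Lifr and Jak1 lie within 1 SE of 0 in the comparisons with wildtype.

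The receptor chains came first in the pathway and showed no called change. For Lifr, the chain that binds LIF, the rebuilt mean was 1620 normalized counts in wildtype, 1592 in single-targeted and 1516 in dual-targeted lines. The 3 values lay close together, and the authors' deposited table gave a log2 fold change of -0.07 ± 0.16 for Lifr in dual-targeted lines (adjusted p = 0.781). An interval of 1.96 SE around that value, itself read as shrunken toward 0, ran from -0.38 to 0.24. Single-targeted lines stood at -0.01 ± 0.13 for Lifr in the authors' deposited table (adjusted p = 0.977). For Il6st, which encodes gp130, the rebuilt mean was 2271 in wildtype, 1870 in single-targeted and 1753 in dual-targeted lines. Both mutant groups were thus below wildtype for Il6st, but the authors' deposited table put it at -0.32 ± 0.16 in dual-targeted lines with an adjusted p of 0.117. Single-targeted lines were at -0.15 ± 0.16 for Il6st (adjusted p = 0.611 in the authors' deposited table).

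Jak1, the kinase bound to these receptor chains, had a rebuilt mean of 247 in wildtype, 306 in single-targeted and 237 in dual-targeted lines. By the authors' deposited tables Jak1 was at -0.04 ± 0.18 in dual-targeted lines (adjusted p = 0.9), beside 0.13 ± 0.18 with single targeting (adjusted p = 0.649). The groups had no order with the number of mutant alleles. Jak1 shares its locus with Raver2 on the opposite strand, and whether counting used strand is unknown here, which leaves reads in the overlap uncertain.

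Stat3, the transcription factor that LIF activates and that also binds its own gene, rose in dual-targeted lines, and its value in single-targeted lines was as large but missed the threshold. Its rebuilt mean was 357 in wildtype, 568 in single-targeted and 537 in dual-targeted lines. Both mutant groups lay above wildtype and near each other. In the authors' deposited table Stat3 rose by 0.53 ± 0.18 in dual-targeted lines (adjusted p = 0.0111). In single-targeted lines Stat3 was at 0.53 ± 0.23 in the authors' deposited table (adjusted p = 0.0559). It passed when p was adjusted only over genes whose mean count was at least 50 (adjusted p = 0.0483, a Benjamini-Hochberg adjustment of the deposited p). Dual- and single-targeted lines differed by -0.05 ± 0.15 for Stat3 in the authors' deposited table (adjusted p = 0.859), an interval of -0.34 to 0.25 at 1.96 SE. Stat3 overlaps Stat5a on the opposite strand at its end. Stat5a itself was at -0.22 ± 0.38 in dual-targeted lines by the authors' deposited table (adjusted p = 0.458).

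Socs3, which encodes the feedback inhibitor that binds gp130 and JAK, changed more than any other of the 8. Its rebuilt mean was 49.9 normalized counts in wildtype, 151 in single-targeted lines and 514 in dual-targeted lines. That was 3.03 times wildtype in single-targeted and 10.3 times in dual-targeted lines, or 1.88 and 7.29 times when the tables were not scaled against each other. The log2 fold change of Socs3 in the authors' deposited table was 3.32 ± 0.28 for dual targeting, with an adjusted p listed as 0, which is below the precision of the table. This was the 9th highest of 11561 genes whose mean count was at least 50. In single-targeted lines Socs3 rose by 1.45 ± 0.33 in the authors' deposited table (adjusted p = 1.81e-04), the 43rd highest of 11686 such genes. The difference between dual- and single-targeted lines was itself called, at 1.65 ± 0.34 for Socs3 in the authors' deposited table (adjusted p = 5.94e-05), the 23rd highest of 11412 such genes. Socs3 was the single member for which this difference passed the test. It lies on chromosome 11, chr11:117966079-117970047 (GRCm38, minus strand), in a gene of 3969 bases that overlaps no other annotated gene.

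The genes most like Socs3 over the 3 comparisons with wildtype were Miat, Soga3, Ttn, Tex19.1 and C78283, in that order among 11098 genes whose mean count was at least 50. Likeness is the distance between the 3 deposited log2 fold changes, and the nearest gene, the long noncoding RNA Miat, had a distance of 0.28. The clones enter both the dual-targeted comparison and their own, so they weigh more in it. The distance takes no account of the SE, which was 0.86 for Tex19.1 in single-targeted lines, so the order was not tested. Miat was at 3.18 ± 0.26 in dual-targeted and 1.65 ± 0.34 in single-targeted lines in the authors' deposited tables. Ttn, the gene of the giant muscle protein titin, was at 2.85 ± 0.30 and 1.49 ± 0.31 in the authors' deposited tables. Of the LIF pathway genes, Bcl3 came nearest, at rank 9 with a distance of 1.07. Klf4 came at rank 159 and Klf5 at rank 176 among the same genes.

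Klf4 and Klf5 are zinc finger factors that sustain the naive state, and both rose in dual-targeted lines. For Klf4 the rebuilt mean was 516 in wildtype, 849 in single-targeted and 1131 in dual-targeted lines, so the single-targeted lines stood between the other groups. The authors' deposited table put Klf4 at 1.08 ± 0.20 in dual-targeted lines (adjusted p = 3.59e-07). In single-targeted lines Klf4 was at 0.55 ± 0.26 and missed the threshold in the authors' deposited table (adjusted p = 0.0713). The difference between the 2 mutant groups was 0.26 ± 0.23 for Klf4 in the authors' deposited table (adjusted p = 0.297), so a lower level in single-targeted lines was not shown. For Klf5 the rebuilt mean was 1755 in wildtype, 3623 in single-targeted and 3568 in dual-targeted lines. Both mutant groups were near each other and about as far above wildtype. The authors' deposited tables gave 0.99 ± 0.18 for Klf5 in dual-targeted lines (adjusted p = 4.59e-07), beside 0.97 ± 0.21 with single targeting (adjusted p = 8.92e-05). The difference between the mutant groups was -0.01 ± 0.16 for Klf5 in the authors' deposited table (adjusted p = 0.977), with an interval of -0.32 to 0.30 at 1.96 SE.

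Tfcp2l1, a factor through which STAT3 sustains self-renewal, did not pass the test in any of the 4 comparisons. Its rebuilt mean was 3656 in wildtype, 4987 in single-targeted and 3927 in dual-targeted lines. The single-targeted lines had the highest value. In the authors' deposited tables Tfcp2l1 was at 0.09 ± 0.17 in dual-targeted lines (adjusted p = 0.724), beside 0.33 ± 0.18 with single targeting (adjusted p = 0.172). Dual- minus single-targeted was -0.20 ± 0.20 for Tfcp2l1 in the authors' deposited table (adjusted p = 0.382). Tfcp2l1 overlaps 3 annotated genes, among them the snRNA Gm23497 on the same strand, which leaves reads in the overlap uncertain.

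Within the dual-targeted group the clones and the third line could be set side by side only as rebuilt means, with no test of their difference. The single-targeted lines, which differ in genotype, enter every mean together and could not be set apart. A rise in that group may thus rest on 1 line. Socs3 was at 549 in the clones and 443 in the third line, both far above the 49.9 of wildtype. The third line was at 8.88 times wildtype for Socs3, or 5.69 times without that scaling. Klf4 was at 1220 in the clones and 951 in the line, and Klf5 at 3809 and 3086. Stat3 was at 533 and 543. All 4 genes that rose were thus above wildtype in both genotypes. For the other members the genotypes fell on different sides of wildtype in places. Tfcp2l1 was at 4356 in the clones and 3068 in the line, with wildtype at 3656, and Jak1 was at 221 and 269, with wildtype at 247. Without scaling the third line was at 0.82 times wildtype for Jak1 in place of 1.09, on the other side of it, and at 0.56 times for Tfcp2l1 in place of 0.84. The clones alone against wildtype gave Socs3 3.40 ± 0.32 (adjusted p listed as 0), Klf4 1.19 ± 0.22 (adjusted p = 4.26e-07) and Klf5 1.07 ± 0.20 (adjusted p = 9.43e-07) in the authors' deposited table. Stat3 rose by 0.51 ± 0.21 in the clones in the authors' deposited table (adjusted p = 0.0395).

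**Figure D2:**
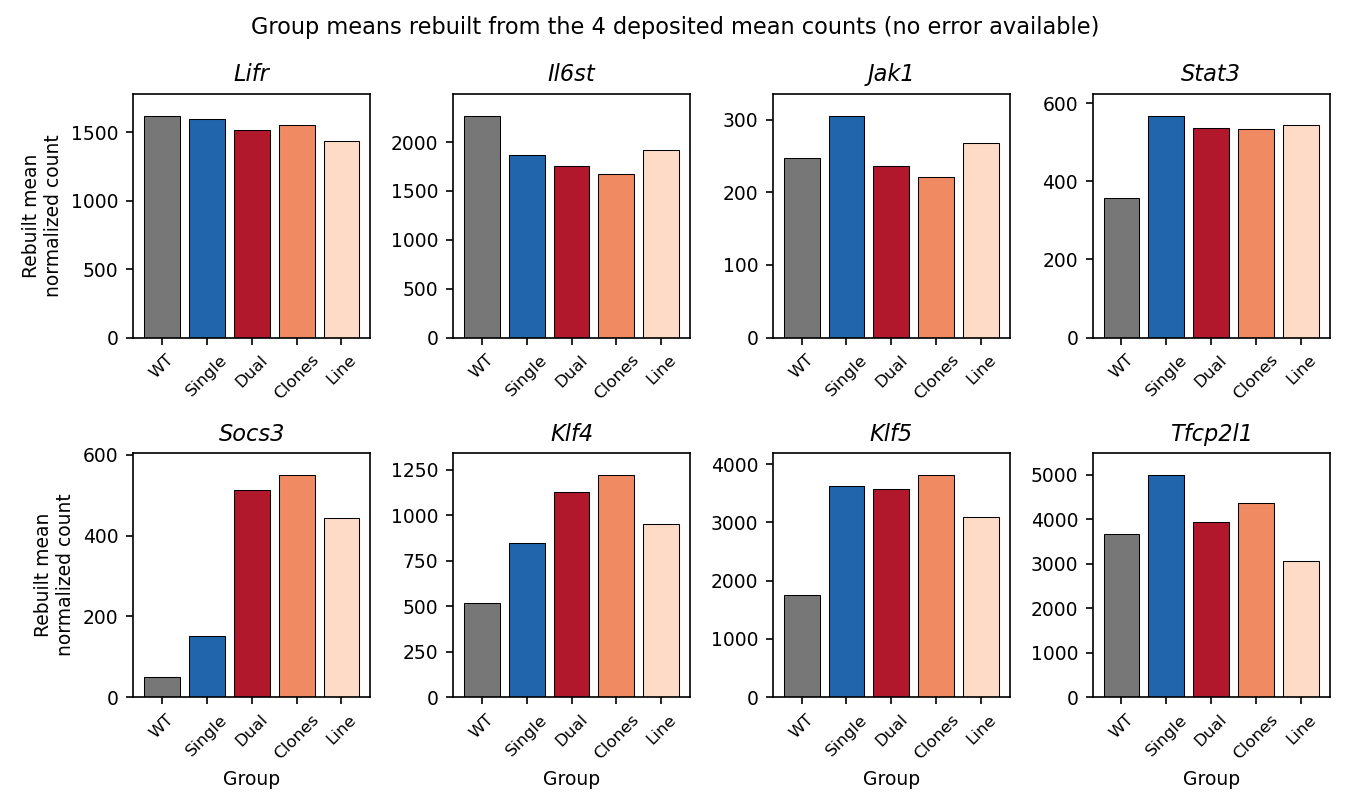
Rebuilt mean normalized count (y axis, from 0) of each gene in wildtype (WT), single-targeted and dual-targeted lines, and, within the dual-targeted group, in the clones and the third line, with no error available. Socs3 climbs from 49.9 to 151 and 514, Klf5 stands at 3623 and 3568 in the single- and dual-targeted groups, and Lifr stays between 1437 and 1620.

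The other genes of the pathway were read from a list of 54, of which 46 were in the dual-targeted table. Of these, 14 rose and 2 fell in dual-targeted lines by the authors' deposited table, with a median log2 fold change of -0.01 beside 0.01 over all genes, of which 10.8% were higher and 10.1% lower. The clones alone had 14 higher and 3 lower of 44 measured, beside 9.05% higher and 10.3% lower over all tested genes. In single-targeted lines 3 were higher and 0 lower of 45 with an adjusted p in the authors' deposited table, beside 1.49% and 1.47% over all tested genes. The counts by role are given below. Each role held few genes, and the roles were not compared by a test. The list was chosen with earlier results of these data known.

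Of the ligands, 4 of 9 were measured, and Lif itself rose. Lif had a rebuilt mean of 45.8 in wildtype, 84.9 in single-targeted and 130 in dual-targeted lines. The authors' deposited table put Lif at 1.37 ± 0.31 in dual-targeted lines (adjusted p = 3.43e-05). In single-targeted lines Lif was at 0.32 ± 0.48 in the authors' deposited table (adjusted p = 0.262). Of the other receptor chains, 3 of 4 were measured and Cntfr, the CNTF-binding chain that signals through gp130 and the LIF receptor, rose by 1.24 ± 0.34 in dual-targeted lines by the authors' deposited table (adjusted p = 5.45e-04). No difference between dual- and single-targeted lines was called for Lif or Cntfr. By the authors' deposited table it was 0.35 ± 0.31 for Lif (adjusted p = 0.202) and 0.69 ± 0.42 for Cntfr (adjusted p = 0.067). None of the 3 other JAK kinases passed the test (0 higher and 0 lower). Over all tested genes 20.9% were called in dual-targeted lines, and each of these roles held few genes.

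Of the other transcription factors of the list, Stat2, which acts in the type I interferon response, had a rebuilt mean of 407 in wildtype, 388 in single-targeted and 188 in dual-targeted lines. Stat2 fell to -1.03 ± 0.21 in dual-targeted lines by the authors' deposited table (adjusted p = 5.86e-06), and stood below single-targeted lines by -0.89 ± 0.28 in the authors' deposited table (adjusted p = 0.00657).

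Among 14 inhibitors besides Socs3, 1 was higher and 1 lower in dual-targeted lines, beside 10.8% higher and 10.1% lower over all tested genes. The higher one was Cish, a STAT5-induced inhibitor of the same family as Socs3, with a rebuilt mean of 32.7 in wildtype, 73.6 in single-targeted and 155 in dual-targeted lines. These untested means took the same order as for Socs3. Cish was not called in single-targeted lines, where its rebuilt mean was 2.25 times wildtype. At counts this low, a missed call does not show a difference from Socs3. In single-targeted lines 0 of the 14 inhibitors were higher and 0 lower in the authors' deposited table, beside 2.96% of all tested genes called. In the authors' deposited table Cish was at 2.18 ± 0.33 in dual-targeted lines (adjusted p = 2.75e-10). The difference between dual- and single-targeted lines was 0.80 ± 0.43 for Cish by the authors' deposited table (adjusted p = 0.0455). That difference missed the threshold for Cish, at an adjusted p of 0.0547, when the deposited p was adjusted over all genes with a p by Benjamini-Hochberg. Of the 8 genes of the SOCS family (Socs1 to Socs7 and Cish), Socs3 and Cish were thus called in dual-targeted lines, where 20.9% of all tested genes were called, and the other 6 lay between -0.38 and 0.07 in the authors' deposited table. Without the third line Socs4, singled out after its values were seen, was called lower (-0.72 ± 0.23, adjusted p = 0.00465, clones against wildtype in the authors' deposited table). Its 40 neighbours on chromosome 14 had a median of -0.91 in the clones, and less that median Socs4 was at 0.19. Pias3, an inhibitor of STAT3, fell to -0.56 ± 0.20 in dual-targeted lines by the authors' deposited table (adjusted p = 0.0146). Of the adaptors that link gp130 to the ERK and PI3K arms, 2 of 4 rose: Shc1 at 0.71 ± 0.20 (adjusted p = 0.00161) and Grb2 at 0.56 ± 0.23 (adjusted p = 0.026) in the authors' deposited table.

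The genes known to respond to LIF held most of the other rises. Of 12 measured, 8 rose and 0 fell in dual-targeted lines, with a median log2 fold change of 1.06 in the authors' deposited table, beside 10.8% higher and 10.1% lower over all tested genes. Several of these genes also answer to ERK, NF-kB or other signals. The list was chosen with earlier results of these data known and was not tested as a set. Bcl3, an IkB family member, had a rebuilt mean of 37.7 in wildtype, 139 in single-targeted and 248 in dual-targeted lines. By the authors' deposited tables Bcl3 was at 2.64 ± 0.28 in dual-targeted lines (adjusted p listed as 0), beside 1.71 ± 0.38 with single targeting (adjusted p = 1.21e-04). Icam1, an adhesion molecule, went from 262 in wildtype to 586 in single-targeted and 766 in dual-targeted lines. By the authors' deposited tables Icam1 was at 1.51 ± 0.20 in dual-targeted lines (adjusted p = 2.43e-12), beside 1.07 ± 0.24 with single targeting (adjusted p = 1.13e-04). Bcl3 and Icam1 were thus called higher in both the single- and the dual-targeted group. No difference between these groups was called for either gene. By the authors' deposited table it was 0.62 ± 0.34 for Bcl3 (adjusted p = 0.0617) and 0.24 ± 0.22 for Icam1 (adjusted p = 0.329).

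Other LIF-responsive genes rose in dual-targeted lines and did not pass the test in single-targeted lines. Gbx2, a homeobox factor that STAT3 induces, had a rebuilt mean of 78.6 in wildtype, 108 in single-targeted and 245 in dual-targeted lines. The authors' deposited tables put Gbx2 at 1.56 ± 0.28 in dual-targeted lines (adjusted p = 1.48e-07), with a called difference from single-targeted lines of 1.00 ± 0.36 (adjusted p = 0.0125). Pim1, a kinase, went from 603 in wildtype to 863 in single-targeted and 1539 in dual-targeted lines. The authors' deposited tables put Pim1 at 1.28 ± 0.24 in dual-targeted lines (adjusted p = 4.94e-07), with 0.67 ± 0.30 for dual- over single-targeted lines (adjusted p = 0.036). Pim3, Myc, Junb and Mcl1, named here after their values were seen, completed the 8, with log2 fold changes of 1.13, 1.37, 0.99 and 0.68 in dual-targeted lines by the authors' deposited table. For Pim3 and Junb the difference from single-targeted lines was not called, at 0.49 ± 0.27 and 0.17 ± 0.31. A lower level in single-targeted lines was thus not shown for these genes. Junb did not pass in the clones alone, at 0.58 ± 0.39 (adjusted p = 0.125 in the authors' deposited table). A further pair was also singled out after its values were seen. Cebpb had a rebuilt mean of 34.8 in wildtype, 124 in single-targeted and 45.03 in dual-targeted lines, and rose in the single-targeted group (1.61 ± 0.43 by the authors' deposited table, adjusted p = 0.00114). Tbx3 had 3014 in the clones and 863 in the third line, with 1210 in wildtype, and rose in the clones (1.27 ± 0.22, adjusted p = 5.79e-08 in the authors' deposited table). Cish, Pias3, Grb2, Gbx2, Pim1, Junb, Bcl3, Cebpb, Icam1 and Tbx3 each overlap another annotated gene, so their counts are uncertain in the overlap, as for Jak1.

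**Figure D3:**
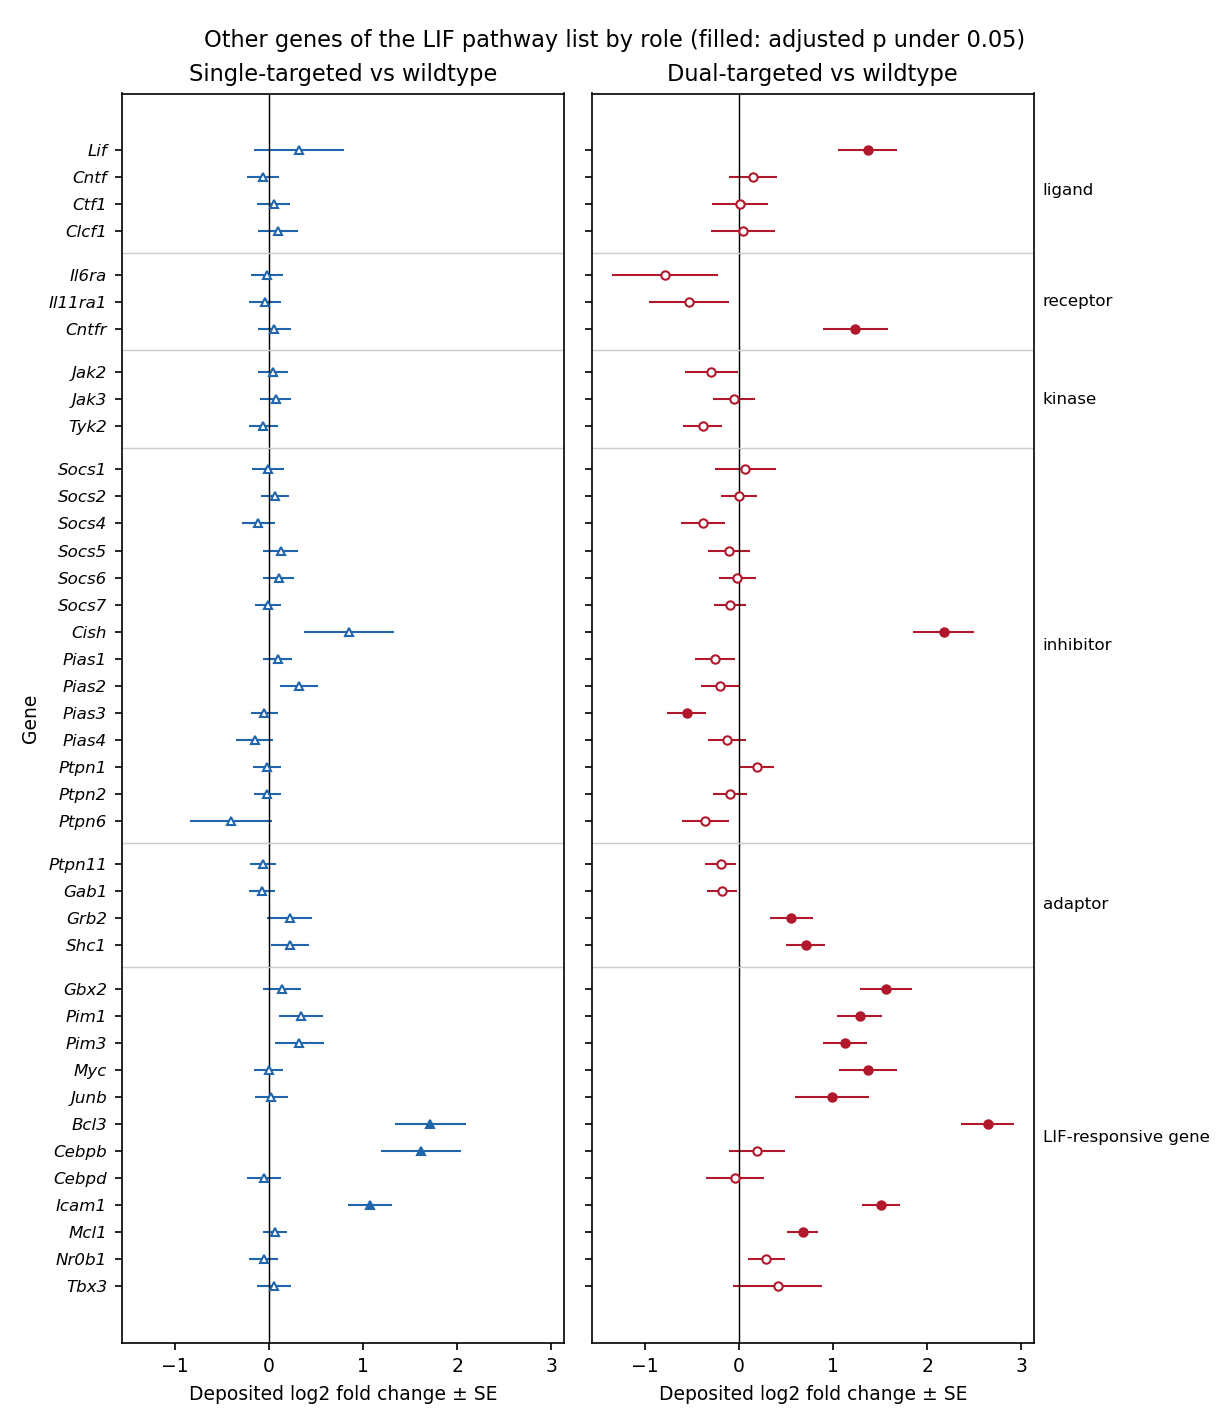
Deposited log2 fold change (x axes, with SE bars) of the other genes of the LIF pathway list (rows, grouped by role, transcription factors not drawn) in single-targeted (left) and dual-targeted lines (right), filled where the adjusted p was under 0.05. In dual-targeted lines the filled points gather in the bottom block, where 8 of 12 LIF-responsive genes rose. The 3 kinases hold none, beside 20.9% of all tested genes called.

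Embryonic stem cell markers moved in the same comparison. In dual-targeted lines 6 of 9 were higher and 0 lower in the authors' deposited table, and 1 of 9 was higher in single-targeted lines, beside 10.8% and 1.49% of all tested genes higher in these comparisons. The markers with the highest mean count, Zfp42 and Esrrb, were not among the 6, at -0.20 ± 0.15 and -0.22 ± 0.18 in dual-targeted lines by the authors' deposited table. The markers' part in the rises of the LIF genes was not tested. Of the fibroblast or feeder markers, 0 of 2 passed the test in dual-targeted lines, and of the primitive endoderm markers 1 of 5 did, beside 20.9% of all tested genes.

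Sequence before the gene starts was read for the STAT consensus TTCNNNGAA, which reads alike on both strands, in RefSeq windows of 300 bases (250 before and 50 after each start, GRCm38.p6). It was present in 8.3% of 32851 such windows, and in a window of 9.55% of 27025 genes. A window was given for 7 of the 8 members, Klf5 not among them, and 1 of the 7 (Socs3) held a match. Of 39 other pathway genes with a window, 3 did: Icam1, Cish and Gab1. The sites of the 3 that rose in dual-targeted lines are printed because they are the matches found beside a called change, with the consensus in capitals and each sequence 5′ to 3′ along its gene.
Socs3, chr11:117969452-117969616, minus strand: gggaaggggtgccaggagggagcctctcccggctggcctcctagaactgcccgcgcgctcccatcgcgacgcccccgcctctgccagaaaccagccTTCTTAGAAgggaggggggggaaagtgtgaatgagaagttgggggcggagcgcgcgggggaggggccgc
Icam1, chr9:21015690-21015939, plus strand: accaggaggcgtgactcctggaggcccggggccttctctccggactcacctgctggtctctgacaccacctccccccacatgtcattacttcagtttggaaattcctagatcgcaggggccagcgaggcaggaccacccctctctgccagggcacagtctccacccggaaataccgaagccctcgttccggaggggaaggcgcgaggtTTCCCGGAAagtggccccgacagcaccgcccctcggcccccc
Cish, chr9:107296654-107296683, plus strand: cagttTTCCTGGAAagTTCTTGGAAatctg

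In Socs3 the match TTCTTAGAA began at -154 from the RefSeq start, in Icam1 TTCCCGGAA began at -42, and Cish held 2 matches, at 1 and 12, within an annotated exon. The Socs3 window was placed on a start at 117969366, while GENCODE annotates starts for its 3 transcripts at 117969186, 117969451 and 117970047, so sequence before the start at 117970047 was not searched. The Socs3 match thus lies after the start at 117970047, outside annotated exons, and before the other starts. The Cish window was placed on a start at 107296659, while GENCODE annotates starts at 107296026, 107296710, 107296907, 107296912 and 107299155. The Cish matches thus lie after the start at 107296026 and before the others. Gab1 also held a match and stood at -0.18 ± 0.16 in dual-targeted lines by the authors' deposited table (adjusted p = 0.405). A match describes letters in a window, and binding was not measured.

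The members differ in length and place. Socs3 (3969 bases), Klf4 (5324 bases) and Klf5 (16346 bases) are the shortest of the 8. Windows of genes of like length had a median of 0.13 at Socs3, 0.14 at Klf4 and -0.10 at Lifr in dual-targeted lines. Less that median, the log2 fold changes in dual-targeted lines were 3.18 for Socs3, 0.94 for Klf4, 0.92 for Klf5 and 0.58 for Stat3. Klf5 lies on chromosome 14 (chr14:99298691-99315036), where the median of its 40 neighbours was -0.15 in dual-targeted lines and -0.16 in the clones. Less that median, Klf5 was at 1.14 in dual-targeted lines. Il6st, on chromosome 13, was the member whose value moved by more than its SE, to -0.52 less the median of its 39 neighbours in dual-targeted lines, a value with no test.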

How the data were processed

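TT-seq libraries of E14 mouse embryonic stem cells were compared by the authors in 4 tables (wildtype 3 libraries, single-targeted 2, dual-targeted 3). The tools named in the submitters' processing notes are DESeq2, featureCounts, STAR, deepTools and SAMtools, with GRCm38.p6 and mm10 as builds and no versions or roles. Per the file headers each table holds a mean normalized count (baseMean, a signal normalized by the authors in a way the headers do not describe), a log2 fold change with its standard error, and the authors' deposited p-values and adjusted p-values. No values per library were used, so no test was refitted and the precision enters only through the deposited errors. The labels call wildtype libraries biological replicates without naming separate cultures, so p-values measure the spread between these libraries and lines.

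The members, gene lists, tests and alternatives were chosen with earlier results of these data known. Named were the 8 members, Lif, up to 4 called genes of each role of the list by adjusted p in dual-targeted lines, and the 5 genes nearest to Socs3. Stat5a and Gab1 were added for an overlap and a motif match, and others are said to be named after their values were seen. A result for 1 gene of the list is not reported here. Markers were given by count, with the highest by mean count named.

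Group means were rebuilt from the 4 means and the numbers of libraries, with scales of 0.983, 1.06 and 0.957 set so that the median of 11099 genes (mean count at least 50) equals wildtype. The direction of fold changes was checked against them: 100% of 2504, 351, 836 and 2284 called genes of that level in the 4 tables had the same sign. The rebuild and the Benjamini-Hochberg adjustment were tested on simulated data. Few genes changed in the simulated libraries, as many up as down, so the scaling on the median gene held by design. That assumption was not tested. Positions come from GENCODE release M 21 (GRCm38), which held 98.4% of the symbols, and windows from RefSeq (GRCm38.p6). Scripts ran on matplotlib 3.10.9, scipy 1.17.1, pandas 2.3.3 and numpy 2.4.6 under Python 3.11.15.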

Additional observations from a re-analysis of the deposited data

Results flagged for a closer look

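For 8 named genes the change against wildtype differed between dual- and single-targeted lines by the authors' own test of that difference, given here as the log2 fold change of dual- over single-targeted lines in the authors' deposited table. Socs3 was at 1.65 (adjusted p = 5.94e-05), Gbx2 at 1.00 (adjusted p = 0.0125), Cish at 0.80 (adjusted p = 0.0455) and Pim1 at 0.67 (adjusted p = 0.036), all higher in dual-targeted lines. Stat2 was at -0.89 (adjusted p = 0.00657), lower in dual-targeted lines. Among genes named after their values were seen, Myc was at 1.22 (adjusted p = 0.0152) and Mcl1 at 0.53 (adjusted p = 0.0159), both higher in dual-targeted lines, and Cebpb at -1.12 (adjusted p = 0.0287), lower. These are the called genes among 8 members and 39 other pathway genes with an adjusted p there. Of all genes tested there, 7.06% were called in either direction. At an adjusted p under 0.01 Socs3 and Stat2 were left. Cish missed the threshold of 0.05 when the deposited p was adjusted over all genes by Benjamini-Hochberg (adjusted p = 0.0547).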

How the results depend on the processing

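No paired analysis was possible because no values per library were used, and for the same reason the single library left out in any fit is the third line, through the clones' own table. Without it the authors' deposited table gave 4 members higher and 0 lower, as the full dual-targeted comparison did.

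Asking for a log2 fold change of at least 1 in size as well left 2 members higher in dual-targeted lines in place of 4 (Socs3 and Klf4), and 1 in single-targeted lines in place of 2 (Socs3). At an adjusted p under 0.01 the other pathway genes lower in dual-targeted lines went from 2 to 1, and between dual- and single-targeted lines those higher went from 5 to 0 and those lower from 2 to 1. At that threshold Stat3 was no longer called in dual-targeted lines (adjusted p = 0.0111) or the clones (adjusted p = 0.0395). The share of all genes called under these stricter settings is not given here, so these counts have no background beside them. The alternatives for the pathway list were added after the data were seen. The stricter motif TTCCNGGAA was found in 0 of 7 members' windows, in place of 1, beside 1.35% of all 27025 genes. Of the 39 other pathway genes with a window 2 held it, Icam1 and Cish, in place of 3.

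Without scaling the tables against each other, the median gene of the single-targeted, dual-targeted and clone groups and of the third line sat at -0.16, -0.17, -0.05 and -0.47 (log2) against wildtype, and rebuilt log2 ratios moved with it. Lifr came to -0.17 in single-targeted and -0.27 in dual-targeted lines and -0.67 in the third line. Il6st came to -0.54 in dual-targeted lines and -0.70 in that line, and Jak1 to -0.25 and -0.29. Stat3 came to 0.38 and 0.20, Klf4 to 0.91 and 0.43, and Tfcp2l1 to -0.093 and -0.84. Socs3 came to 0.91 in single-targeted lines, 2.87 in dual-targeted lines, 3.02 in the clones and 2.51 in that line. Klf5 came to 0.81, 0.79 and 0.36 in single-targeted, dual-targeted lines and that line. Scales from all genes moved these log2 ratios by 0.039 at most.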
